A study of Homo sapiens with 208 samples.

Results

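The 10 epithelial keratins KRT5, KRT6A, KRT7, KRT8, KRT15, KRT16, KRT17, KRT18, KRT19 and KRT80 were followed through 8 time courses of lung adenocarcinoma cells treated with gefitinib, EGF, both or neither. They were taken as the genes to which the RefSeq accessions of the array's probes assigned these symbols, and they are 10 of the 16961 genes with a probe and 10 of the 13263 genes that passed the filter on low signal. Keratins build the intermediate filaments of epithelial cells, and a filament is assembled from an acidic type I and a basic type II keratin. KRT8, KRT18, KRT19 and KRT7 are the usual set of simple epithelia such as the lining of lung airways and glands, KRT5 and KRT15 are known from the basal layer of stratified epithelia, and KRT6A, KRT16 and KRT17 are the keratins that wounded or hyperproliferative epidermis switches on. The set held 5 type I keratins, KRT15, KRT16, KRT17, KRT18 and KRT19, and 5 type II keratins, KRT5, KRT6A, KRT7, KRT8 and KRT80. In the gene order of RefSeq 6 of them lie on chromosome 12, where the type I gene KRT18 is the neighbour of KRT8 and KRT6A lies between KRT6C and KRT5, and 4 lie on chromosome 17, where KRT15 adjoins KRT19 and KRT16 adjoins KRT17.

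The cells were PC9, a gefitinib-sensitive line with an activating EGFR deletion, and PC9M2, a resistant line that the sample titles call PC9GRM2, raised from PC9 by months of exposure to gefitinib. PC9M2 is 1 isolate without MET amplification or the common second EGFR mutation, so it stands for 1 route to resistance. All cells were starved for 48 h and then left without treatment, given 0.5 uM gefitinib, an inhibitor of the EGFR kinase, from -2 h, given 100 ng/ml EGF, a ligand of that receptor, from 0 h, or given both (IRS in the titles stands for the samples whose labels name gefitinib). RNA was taken at 0, 0.5 and 1 h and then hourly to 24 h, which gave 26 arrays for each of the 8 courses and 208 in all.

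With 1 array per time point, each comparison was made on the 26 differences between matched time points, with limma's moderated test, two-sided, and Benjamini-Hochberg adjustment over the 13263 genes at 0.05. The p-values therefore measure the spread between time points, of which neighbouring ones are not independent, and not the spread between cultures. Values are log2 of quantile-normalized intensity, so a difference of 1 is a 2-fold change, and levels of different genes were not compared. The 2 lines shared none of the 52 slides and no scanning day, so line and scan cannot be told apart. EPCAM, CDH1, CDH3, CLDN4 and CLDN7, which mark epithelial cells, were well above background on 104 of 104 arrays of each line. Of the mesenchymal genes VIM was so on 104 PC9 and 104 PC9M2 arrays, FN1 on 46 and 66, ZEB1 on 9 and 2 and CDH2 on 2 and 0. Of the lung adenocarcinoma genes NAPSA reached that level on 103 and 104 arrays, SFTPC on 103 and 103, SFTPB on 46 and 43 and the lineage factor NKX2-1 on 9 and 4. Of the squamous genes KRT5 reached it on 104 and 104, TP63 on 95 and 93, and the desmosomal cadherins DSG3 and DSC3 on 14 and 0 and on 2 and 0. The mesenchymal, lung adenocarcinoma and squamous lists were thus each expressed in part. Of leukocyte genes CD14 reached that level on 104 and 104 arrays, CD3E on 52 and 32 and PTPRC on 1 and 0. Of endothelial genes VWF did so on 104 and 104, PECAM1 on 103 and 104 and CDH5 on 18 and 16.

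The brightest keratins ran into the upper limit of the PC9 scans. The highest signal a scan could record was 65525 to 65526 on the PC9 arrays, which is 16.0 on the log2 scale, and 778994 to 779239 on the PC9M2 arrays, or 19.6, and between 183 and 1616 features were saturated on a PC9 array against 0 on every PC9M2 array. KRT19 was saturated on 26 of 26 arrays of all 4 PC9 courses, KRT18 on 25 or 26 and KRT5 on 24 to 26. In untreated PC9M2 the raw signal of KRT19 lay between 17.2 and 18.3 and that of KRT18 between 16.4 and 17.6, above the PC9 limit, while KRT5 lay between 13.7 and 15.7. The brighter of 2 KRT8 probes was saturated on 26 of 26 arrays of each PC9 course as well, and its raw signal in untreated PC9M2 ran from 15.2 to 17.1. These levels show that both lines carried abundant KRT5, KRT8, KRT18 and KRT19 transcripts, but a saturated spot has no upper bound, so KRT5, KRT18 and KRT19 were not compared where PC9 entered. The other 7 keratins, saturated on at most 0.5 of the arrays of each course, were compared in PC9 and between the lines, and all 10 within PC9M2.

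**Figure D1:**
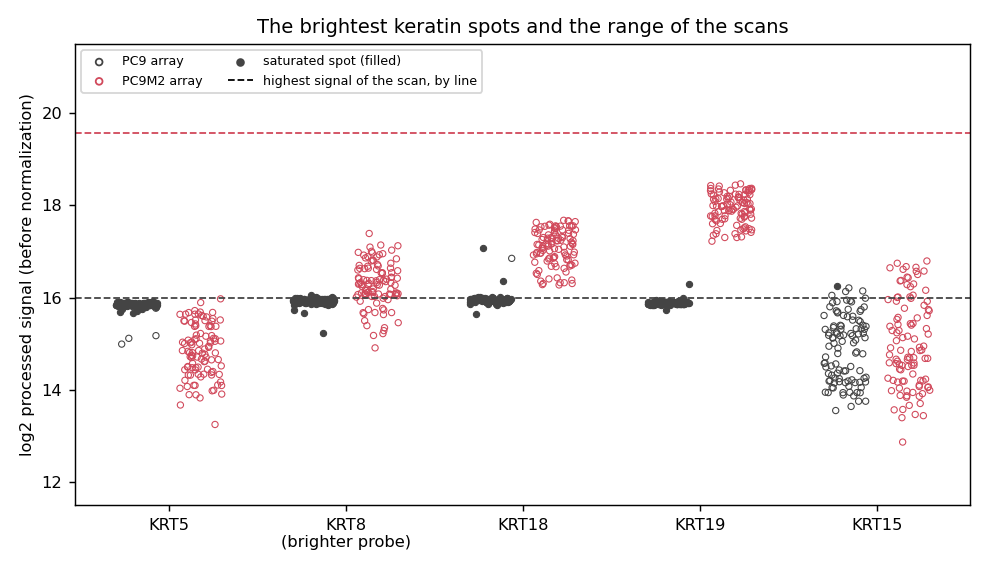
Raw log2 processed signal of KRT5, KRT8 (brighter probe), KRT18, KRT19 and KRT15 by line, all treatments together, 1 point per array, filled where the spot was saturated; the dashed lines mark the highest signal of the scans, 16.0 for PC9 and 19.6 for PC9M2. Nearly all PC9 points of KRT18 and KRT19 lie against the limit, some passing it in the processed signal, whereas the PC9M2 points lie above it unsaturated. Why processed signals passed the limit was not tested. KRT15 reached 16.2 on the PC9 arrays with gefitinib.

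Gefitinib lowered KRT6A in both lines, by more than any other keratin of the set that was compared. KRT6A is the type II partner of KRT16 in activated epidermis. In untreated PC9 its level ran from 11.79 over a median of 12.99 to 13.72, with a mean of 12.88 ± 0.49 (SD, n = 26). With gefitinib it ran from 7.58 over 10.51 to 12.46, with a mean of 10.64 ± 1.11 (SD, n = 26). The ranges overlapped between 11.79 and 12.46, and the gefitinib course stood in that overlap early, with 12.46 at 0 h and 9.08 at 18 h. The lowest value came from the 16 h array, one of the arrays furthest from their neighbours in time; without the 11 h and 16 h time points the difference below was -2.16. Over all matched time points KRT6A was lower with gefitinib at 26 of 26, by 2.24 ± 0.195 (SE) or 4.72-fold (adjusted p = 5.79e-11).

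In PC9M2 the KRT6A level without treatment ran from 10.13 over a median of 11.20 to 12.00, and with gefitinib from 8.18 over 9.47 to 11.32. The mean difference was -1.40 ± 0.163 (SE), 2.64-fold lower with gefitinib, at 24 of 26 time points (adjusted p = 1.66e-08). When EGF was present in both arms the difference was larger in size, with -3.12 or 8.67-fold in PC9 (SE 0.255, adjusted p = 1.31e-11) and -2.52 or 5.75-fold in PC9M2 (SE 0.236, adjusted p = 2.74e-10). Within the scanning days, each of which held all 4 treatments of its time points, KRT6A was lower with gefitinib on 8 of 8 PC9 days and on 8 of 9 PC9M2 days, the exception being a mean of 0.41 on 1 day. KRT6A, KRT6B and KRT6C are near-identical in sequence, and how much of the KRT6A signal came from the other 2 genes was not tested.

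**Figure D2:**
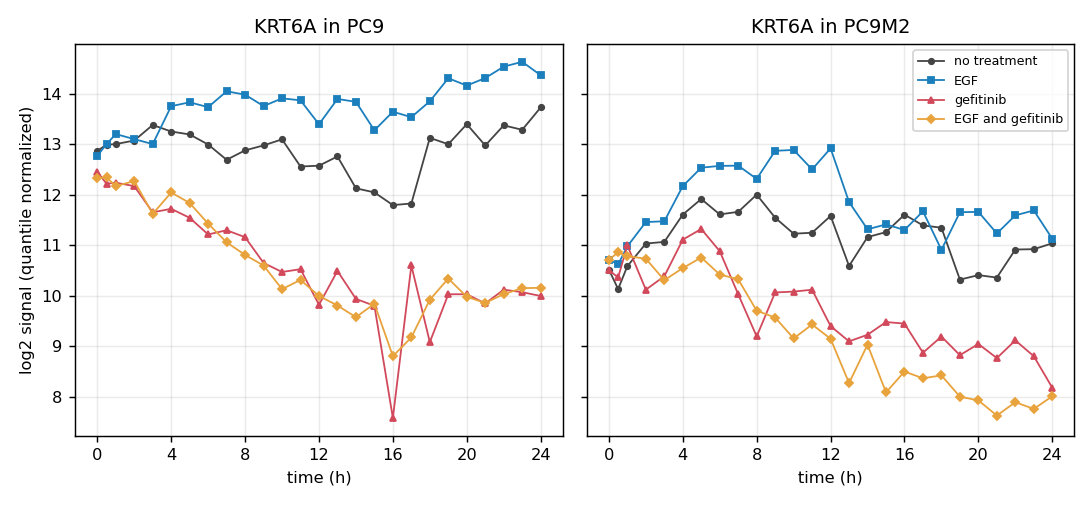
KRT6A level (log2 normalized intensity) against hours after EGF addition in PC9 and PC9M2, 1 line per treatment, 1 array per point. The 2 gefitinib courses fell away from the others in both lines, to a lowest value of 7.58 in PC9, while the EGF course ran above the untreated one.

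KRT15, KRT16 and KRT17, 3 type I keratins of the chromosome 17 cluster, rose with gefitinib in both lines. KRT15 ran from 13.43 over a median of 13.89 to 14.39 in untreated PC9 and from 14.34 over 15.25 to 16.94 with gefitinib. The 2 ranges touched only between 14.34 and 14.39. The difference was 1.44 ± 0.162 (SE) or 2.70-fold, higher at 25 of 25 time points (adjusted p = 1.03e-08); the spot at 16 h with gefitinib was an outlier on its array and was removed. In PC9M2 KRT15 ran from 13.52 over 14.84 to 15.16 without and from 15.14 over 15.98 to 16.28 with gefitinib, a difference of 1.12 ± 0.113 (SE) (adjusted p = 1.14e-09). The raw KRT15 signal of PC9 reached 16.2 with gefitinib, at the scan limit, and 1 of its spots was saturated. Its normalized level reached 16.94 there. Under scaling to the 75th percentile the gefitinib difference of KRT15 was 1.35 in PC9 and 1.52 in PC9M2. Whether the scan limit changed the size of its rise in PC9 was not tested.

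KRT16, the type I partner of KRT6A, ran from 10.79 over a median of 12.96 to 13.59 in untreated PC9 and from 13.36 over 14.11 to 14.80 with gefitinib. Its difference was 1.28 ± 0.161 (SE), higher at 24 of 26 time points (adjusted p = 4.99e-08). In PC9M2 it ran from 10.13 over 12.45 to 12.95 without and from 12.92 over 13.88 to 14.82 with gefitinib, so that the courses barely overlapped, and the difference was 1.63 ± 0.153 (SE) or 3.10-fold at 26 of 26 time points (adjusted p = 2.9e-10). A second, brighter KRT16 probe gave 0.80 in PC9, where it was saturated on up to 24 of 26 arrays of a course, and 1.18 in PC9M2, where it was never saturated. Thus the pair KRT6A and KRT16, which form filaments together in epidermis, moved in opposite directions.

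KRT17, another keratin of activated epidermis, ran from 9.84 over a median of 11.07 to 11.70 in untreated PC9 and from 11.34 over 12.36 to 13.20 with gefitinib, a difference of 1.27 ± 0.157 (SE) at 25 of 26 time points (adjusted p = 3.77e-08). In PC9M2 it ran from 7.16 over 10.28 to 10.91 without and from 10.78 over 12.00 to 12.73 with gefitinib, a difference of 1.82 ± 0.171 (SE) or 3.53-fold at 26 of 26 time points (adjusted p = 2.99e-10). The lowest values of KRT16 and KRT17 in untreated PC9M2, 10.13 and 7.16, came from the 11 h array, which deviated most from its neighbours in time among the 192 arrays with both neighbours (median absolute deviation over genes 0.67 against a median of 0.19). Without the 11 h and 16 h time points, a choice made after seeing the data, the PC9M2 differences were 1.53 for KRT16 and 1.70 for KRT17, and both were still called. With EGF in both arms KRT15, KRT16 and KRT17 differed by 1.30, 1.22 and 1.07 in PC9 and by 1.28, 1.58 and 1.59 in PC9M2, each called. On 8 of 8 PC9 and 9 of 9 PC9M2 scanning days all 3 had a higher mean with gefitinib than without treatment. With EGF in both arms KRT16 and KRT17 were higher on 7 of 8 PC9 days, and on the other their means were -0.11 and -0.10. KRT14, KRT16 and KRT17 are close in sequence too, and cross-hybridisation between them was not tested.

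**Figure D3:**
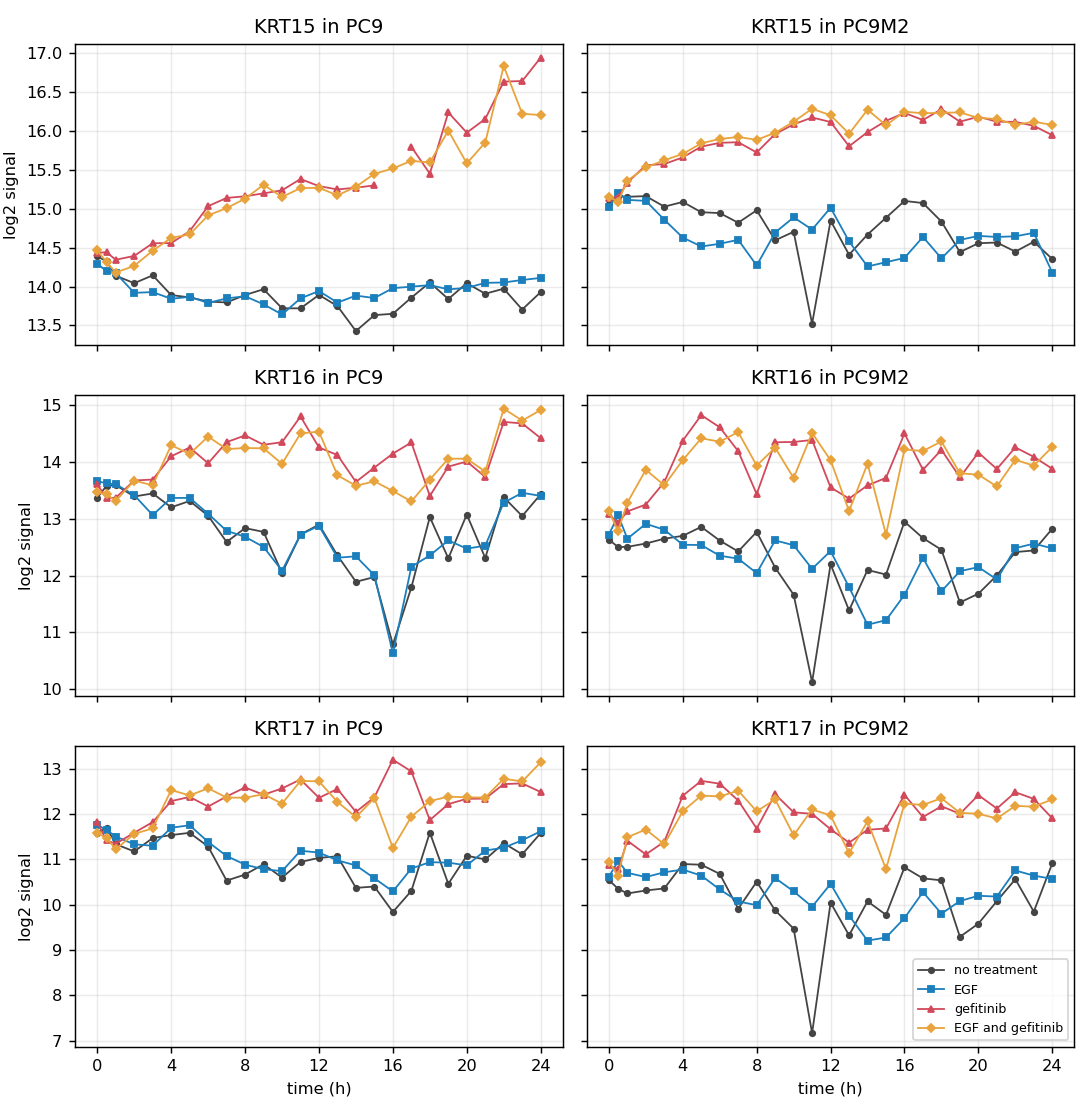
KRT15, KRT16 and KRT17 levels (log2 normalized intensity) against hours after EGF addition, 1 keratin per row, PC9 left and PC9M2 right, 1 line per treatment, 1 array per point. The gefitinib courses separated upwards from the courses without gefitinib in both lines, and the dip to 7.16 of KRT17 in untreated PC9M2 is the 11 h array.

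Among the keratins of simple epithelia KRT7 fell in PC9, and KRT18 and KRT19 could be followed in PC9M2 alone. KRT7 ran from 13.38 over a median of 14.05 to 14.67 in untreated PC9 and from 12.97 over 13.45 to 14.35 with gefitinib, and fell by 0.51 (SE 0.0786, adjusted p = 1.49e-06) at 25 of 26 time points. In PC9M2 its difference was 0.08 with an interval from -0.10 to 0.26 (adjusted p = 0.445). KRT8 was read from its dimmer probe, the one with the larger variance, and differed by 0.19 in PC9 (interval -0.15 to 0.53, adjusted p = 0.309) and rose by 0.28 in PC9M2 (adjusted p = 0.00472). The brighter KRT8 probe gave 0.09 in PC9M2 and was not called (limma adjusted p = 0.0634). The call of the dimmer probe there was lost unpaired, over the first 13 time points and with the variance inflated for autocorrelation. KRT18, the partner of KRT8, differed by 0.05 in PC9M2 (interval -0.02 to 0.12, adjusted p = 0.244). Its other probes, unsaturated in PC9M2, gave 0.08 and 0.11. The KRT18 probe with the highest mean was called in PC9M2 with EGF in both arms (0.11, limma adjusted p = 0.0178). KRT19 differed by 0.10 in PC9M2 (adjusted p = 0.0142), a called change of 1.07-fold. The KRT19 interval ran from 0.03 to 0.18. Its call was lost unpaired, over the first 13 time points, with time points 3 h apart and with scanning day as a random block.

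KRT5, the basal type II keratin, differed by 0.14 in PC9M2 (interval -0.01 to 0.29, adjusted p = 0.0959). KRT80, a type II keratin found in many epithelia, had a difference of -0.59 with gefitinib in PC9 (SE 0.109, adjusted p = 2.54e-05) and -0.34 in PC9M2 (SE 0.0821, adjusted p = 0.000594). Its probe was well above background on only 16 to 22 of the 26 arrays of a course. A brighter KRT80 probe, at 11.71 in untreated PC9, gave -0.41 and -0.24. On the dimmer probe the PC9M2 call was lost unpaired, over the first 13 time points, 3 h apart and with normexp background correction.

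Counted over the set, gefitinib raised 3 and lowered 3 of the 7 compared keratins in PC9, where 35.1% of all tested genes were called higher and 37.2% lower. In PC9M2 5 of 10 were higher and 2 lower, against 32.6 and 34.2% of all genes. With EGF in both arms the counts were 3 higher and 3 lower of 7 in PC9, against 39% and 39.9%, and 6 higher and 2 lower of 10 in PC9M2, against 36.7 and 37.8%. The additional called keratins of that last comparison were KRT5 (0.15) and KRT7 (0.18), and KRT8 was no longer called (0.15, adjusted p = 0.186). The brighter KRT8 probe was called there (0.12, limma adjusted p = 0.0102). In that comparison the KRT5, KRT7 and KRT80 calls were lost unpaired, over the first 13 time points and 3 h apart. They were also lost under 75th percentile scaling and with scanning day as a random block. With so many genes called, the count of keratins adds little to the sizes: the median absolute difference of the 7 keratins in PC9 was 1.27 against 0.44 over all genes, and 1.12 against 0.32 for the same 7 in PC9M2. With KRT5, KRT18 and KRT19 added, the median of the 10 in PC9M2 was 0.31.

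**Figure D4:**
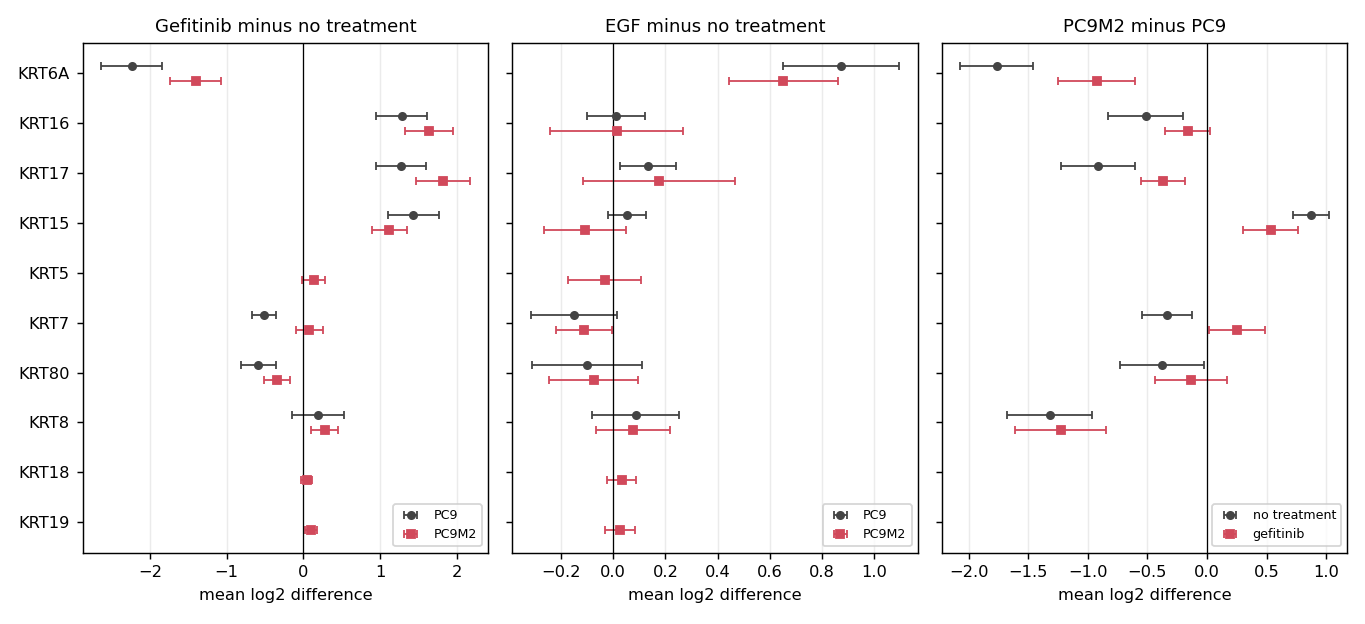
Mean difference over the matched time points (log2) with its 95% confidence interval for each compared keratin: gefitinib minus no treatment and EGF minus no treatment in PC9 and PC9M2, and PC9M2 minus PC9 without treatment and with gefitinib. KRT6A stood lowest and KRT15, KRT16 and KRT17 highest in the gefitinib panel, and the KRT6A intervals lay above 0 in both lines in the EGF panel.

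The size of the gefitinib effect was then compared between the lines. KRT6A fell by less in PC9M2, with a difference of the effects of 0.84 ± 0.155 (SE, adjusted p = 0.000115), and the effects on KRT7, -0.51 in PC9 and 0.08 in PC9M2, differed by 0.59 ± 0.132 (SE, adjusted p = 0.000897). KRT17 rose by more in PC9M2, by 0.55 ± 0.173 (SE, adjusted p = 0.0143), and KRT15 by less, by -0.31 ± 0.105 (SE, adjusted p = 0.0222). The KRT15 difference turned to 0.16 (adjusted p = 0.156) when arrays were scaled to their 75th percentile instead of quantile normalized, so its direction is not settled. With time points 3 h apart neither KRT17 (0.59, adjusted p = 0.0575) nor KRT15 (-0.30, adjusted p = 0.312) was called, and KRT7 was not called over the first 13 time points (0.55, adjusted p = 0.13). KRT16 (0.35, adjusted p = 0.0933), KRT80 (0.24) and KRT8 (0.09) were not called. The 4 called keratins, 3 higher and 1 lower of 7, stood against 17% and 16.9% of all genes.

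The effect of gefitinib on KRT6A and KRT15 grew over the day. In PC9 the KRT6A difference averaged -0.71 from 0 to 2 h, -1.86 from 3 to 11 h and -2.97 from 12 to 24 h, and in PC9M2 -0.07, -1.19 and -1.96. The KRT15 difference averaged 0.18, 1.13 and 2.08 in PC9 and 0.16, 1.12 and 1.42 in PC9M2 over the same windows. From 12 h on the effect differed from that of the earlier time points by -1.46 for KRT6A and 1.24 for KRT15 in PC9 (adjusted p = 0.000114 and 5.59e-05) and by -1.11 and 0.60 in PC9M2 (adjusted p = 0.00107 and 0.0182). These 2 were the called keratins in each line, of 7 compared in PC9, where 46.1% of all genes were called, and of 10 in PC9M2, where 36.7% were. Under 75th percentile scaling the KRT15 value was 0.89 in PC9 and 0.75 in PC9M2, still called in both lines.

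The effect on KRT16 and KRT17 was near its height from 3 h on. Their differences averaged 0.02 and 0.09 from 0 to 2 h in PC9, 1.37 and 1.32 from 3 to 11 h, and 1.61 and 1.60 from 12 h. In PC9M2 they averaged 0.54 and 0.68, then 2.02 and 2.21, then 1.70 and 1.90. The late minus early difference was 0.66 for both in PC9 (adjusted p = 0.0706 and 0.0626) and 0.13 and 0.16 in PC9M2 (adjusted p = 0.77 and 0.747), none of them called. A linear trend over time, fitted with limma in its place, called both in PC9 (adjusted p = 0.0148 and 0.0147). Growth after 12 h alone was not tested.

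The untreated courses moved as well. A spline over time was called for 4 of 7 keratins in untreated PC9, namely KRT6A, KRT15, KRT16 and KRT17, against 66.3% of all genes, and for 6 of 10 in untreated PC9M2, namely KRT5, KRT6A, KRT7, KRT8, KRT15 and KRT80, against 67.2%. With gefitinib it was called for 6 of 7 in PC9, all but KRT80, against 77.8%, and for 9 of 10 in PC9M2, all but KRT7, against 63.7%. Time ran with scanning day, 1 to 4 consecutive time points sharing a day. With the day as a random block only KRT6A and KRT80 were still called in untreated PC9M2, and KRT5, KRT6A, KRT15 and KRT17 in PC9M2 with gefitinib, and KRT15 in untreated PC9 was not called under 75th percentile scaling (adjusted p = 0.25). The fitted curve of KRT15 in PC9 with gefitinib climbed from its lowest point at 0 h to its highest at 24 h over 2.67. That of KRT6A fell over 2.82 from 0 h to its lowest point at 17 h. Under 75th percentile scaling these curves spanned 1.765 for KRT15 and 2.75 for KRT6A, so the KRT15 span depended on the scaling. The fitted KRT6A curve of untreated PC9 spanned 1.46, with its lowest point at 15 h.

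EGF raised KRT6A in both lines, and no other keratin of the set that was compared was called. The EGF course of PC9 ran from 12.77 over a median of 13.83 to 14.63, higher than the untreated course at 24 of 26 time points by 0.87 ± 0.109 (SE) or 1.83-fold (adjusted p = 9.13e-07). In PC9M2 it ran from 10.62 over 11.66 to 12.92, higher at 24 of 26 by 0.65 ± 0.102 (SE) or 1.57-fold (adjusted p = 9.85e-05). KRT6A was the 1 keratin called of 7 in PC9 and of 10 in PC9M2, where 11.3 and 4.09% of all genes were called higher and 14.3 and 5.04% lower. By the size of its difference KRT6A stood at the 99.7th percentile of all genes in PC9. With only time points 3 h apart the differences were 0.64 (adjusted p = 0.0536) and 0.54 (adjusted p = 0.203) and were no longer called.

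KRT17 had a difference of 0.13 (interval 0.03 to 0.24, adjusted p = 0.0609) in PC9 and of 0.18 (-0.12 to 0.47, adjusted p = 0.52) in PC9M2, and KRT7 -0.15 and -0.11 (adjusted p = 0.185 and 0.211). Scaled to the 75th percentile, KRT17 was called in PC9 as well (0.15, adjusted p = 0.0456). The intervals of KRT16, -0.10 to 0.12 in PC9, and of KRT15, -0.02 to 0.13, were narrow beside their gefitinib differences. The EGF effect was called different between the lines for 0 of 7 keratins, with 0 at an unadjusted p under 0.05 and 0 by the paired test of the study's methods, against 0.558 and 0.777% of all genes; that of KRT6A was -0.22 (interval -0.52 to 0.08).

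Under gefitinib the response of KRT6A to EGF was not seen. In PC9 the 2 gefitinib courses both had a KRT6A mean of 10.64, with a difference of -0.01. None of 7 keratins was called there (0 of 7, with 1 at an unadjusted p under 0.05 and 0 by the paired test of the study's methods), against 0.0452% of all genes called higher and 0% lower. In PC9M2 KRT6A was lower with EGF and gefitinib than with gefitinib alone, by -0.47 ± 0.106 (SE) at 21 of 26 time points (adjusted p = 0.0139), the 1 keratin called of 10, against 1.07 and 2.14% of all genes. That call was lost when time points were not paired, were taken 3 h apart, were limited to the first 13, or when the SE was inflated for the correlation of neighbouring time points.

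Without treatment, KRT6A was lower and KRT15 higher in PC9M2 than in PC9. KRT6A was lower in untreated PC9M2 at 26 of 26 time points, by 1.76 on the log2 scale or 3.40-fold (difference -1.76 ± 0.150 SE, adjusted p = 1.82e-11). KRT15 was higher at 25 of 26, by 0.87 ± 0.0746 (SE) or 1.83-fold (adjusted p = 2.2e-11). KRT17 differed by -0.92 (adjusted p = 4.76e-06), KRT16 by -0.51 (adjusted p = 0.00437) and KRT7 by -0.34 (adjusted p = 0.00432). The dimmer KRT8 probe differed by -1.32 (adjusted p = 1.08e-07). The brighter one read 0.26, but it was saturated throughout PC9, so its reading gives no direction. KRT8 is counted below as lower from its dimmer probe alone. KRT80 differed by -0.38 (adjusted p = 0.0535) on its probe near background, with means of 0.21 from 0 to 2 h, 0.30 from 3 to 11 h and -1.03 from 12 h. The brighter KRT80 probe gave -0.43 and was called (limma adjusted p = 0.000405). It was also called with gefitinib (-0.26) and with both agents (-0.50), whereas the counts below use the probe near background. With gefitinib in both lines KRT7 read 0.25 (adjusted p = 0.0543), above 0.

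The called keratins without treatment, 6 of 7 with 1 higher and 5 lower, stood against 31.1% of all genes called higher and 37% lower. Of these, KRT7 was not called over the first 13 time points or 3 h apart. KRT16 was not called over the last 13 or with the variance inflated for autocorrelation. With EGF 7 of 7 were called, 1 higher and 6 lower, against 32.8% and 37%. There the KRT7 call (-0.30) was lost unpaired, over the first or the last 13 time points, 3 h apart and with inflated variance. The KRT80 call (-0.35) was lost with normexp, 3 h apart and with inflated variance, and read 0.16 over the first 13. Gefitinib left 4 of 7 called, 1 higher and 3 lower, against 30.7 and 34.3%, and the 2 agents together the like, 1 and 3, against 31.5 and 36.2%. KRT6A (-0.93 with gefitinib, -1.39 with both), KRT15 (0.53 and 0.70) KRT17 (-0.37 and -0.35) and the dimmer KRT8 probe (-1.23 and -1.31) were called under every treatment. The KRT15 difference with gefitinib was 1.1 under 75th percentile scaling, and 1.18 with both agents. It was not called with time points 3 h apart (0.53, adjusted p = 0.0526), over the last 13 time points (0.17) or with the variance inflated for autocorrelation, and that of KRT17 with gefitinib was not called 3 h apart (-0.30, adjusted p = 0.162) or over the first 13 time points (-0.29). Testing one-sidedly, for PC9M2 above PC9 only, called 1 keratin, KRT15, in each of the 4 comparisons.

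The order of the 8 courses showed how far treatment and line reached for each keratin. KRT6A was highest in PC9 with EGF (13.76), followed by untreated PC9 (12.88), PC9M2 with EGF (11.77) and untreated PC9M2 (11.12). The PC9 courses with gefitinib, with and without EGF, came next at 10.64, and those of PC9M2 were lowest at 9.72 and 9.25. The gap between neighbours in that order was set against the SD of their differences at matched time points. The gap was larger except between untreated PC9M2 and PC9 with gefitinib, between the gefitinib courses of PC9 and between those of PC9M2. KRT16 and KRT17 fell into 3 steps: the 4 gefitinib courses (13.86 to 14.06 and 11.87 to 12.29), PC9 without gefitinib (12.78 and 11.02 to 11.15) and PC9M2 without gefitinib (12.26 to 12.27 and 10.10 to 10.27). KRT15 was highest in PC9M2 with gefitinib and EGF (15.94) and lowest in untreated PC9 (13.90). Only PC9M2 with EGF (14.66) and PC9 with EGF (13.95) were neighbours further apart than the SD of their matched differences. KRT7 (13.51 to 14.02) had no neighbours further apart than that.

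Over the 104 arrays of a line KRT16 and KRT17 varied together, with Pearson's r of 0.94 in PC9 and 0.98 in PC9M2, and KRT6A ran against KRT15, with -0.83 and -0.79. These arrays share treatments and time points, and the values only describe them. The nearest genes given next were sought among the tested genes outside the 10 keratins, so they leave out pairs such as KRT16 and KRT17. Of these genes the one most like KRT6A over the 208 arrays was KRT6C (r = 0.99), and the one most like KRT15 was TMEM44 (0.95). KRT16 was most like RHOV (0.88), KRT17 like CYP4F8 (0.88), KRT8 like BAG5 (0.84), KRT7 like SLX1A (0.81) and KRT80 like ERGIC1 (0.74). For KRT5, KRT18 and KRT19, saturated in PC9, the 104 PC9M2 arrays alone were used, and the nearest genes were H19 (0.84), SIPA1 (0.72) and VPS28 (0.80).

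The counts of the gene lists that follow stand beside the shares of all tested genes called higher and lower with gefitinib, 35.1 and 37.2% in PC9 and 32.6 and 34.2% in PC9M2, and in untreated PC9M2 against PC9, 31.1 and 37%. Of 41 other keratins listed 23 were tested, and gefitinib raised 8 and lowered 4 in PC9 and raised 12 and lowered 2 in PC9M2, with medians of 0.13 and 0.26 against -0.02 and -0.01 over all genes. KRT6C (-2.24 in PC9, -1.46 in PC9M2) and KRT6B (-2.19, -1.30) fell in both lines. KRT1, a keratin of differentiating epidermis, rose by 2.86 in PC9 and 3.18 in PC9M2, KRT9, the keratin of palm and sole skin, by 2.41 and 1.75, and KRT4, a keratin of the oral and oesophageal lining, by 2.00 and 1.92. KRT14, the basal partner of KRT5, rose by 1.11 and 0.84. EGF raised KRT6C (0.81 and 0.73) and KRT6B (0.67 and 0.54) in PC9 and PC9M2, although KRT6B was saturated on up to 13 of 26 arrays of a PC9 course. In the untreated lines 4 were higher and 9 lower in PC9M2, led by KRT14 (-2.10), KRT6B (-1.86) and KRT6C (-1.83).

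Genes that anchor keratin filaments in desmosomes and hemidesmosomes moved both ways with gefitinib, 9 of 18 tested higher and 4 lower in PC9 and 8 and 4 in PC9M2. ITGA6, a hemidesmosomal integrin (-3.13 in PC9, -1.22 in PC9M2), and PKP2, a desmosomal plaque protein (-2.29, -1.94), fell in both lines. DSP, which ties keratins to desmosomes, rose by 1.56 and 0.91 and the desmosomal cadherin DSC2 by 1.27 and 0.73. Among genes of stratified and cornified epithelium 4 of 19 tested were higher and 13 lower in PC9 (median -0.49), and 8 and 7 in PC9M2 (median -0.04). SPRR2D, a cornified envelope precursor, fell (-2.59 and -1.22), and TRIM29 rose by 2.25 and 1.07. In untreated PC9M2 13 of these 19 genes were lower than in PC9 and 2 higher (median -0.90).

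Of 17 tested transcription factors known to act on keratin genes, gefitinib raised 8 and lowered 8 in PC9 and raised 8 and lowered 3 in PC9M2. FOSL1, a subunit of AP-1 (-4.35 in PC9, -2.77 in PC9M2), and JUN, another subunit (-1.61, -1.64), fell in both lines. ELF3, an epithelial ETS factor, rose by 3.08 and 2.30, and TP63, the basal epithelial factor that also stands in the stratified list, fell by 2.15 in PC9. Of other intermediate filament genes 3 of 10 tested were higher and 3 lower with gefitinib in PC9 and 2 and 3 in PC9M2; INA, a neuronal filament gene, fell (-1.28 and -1.19). VIM, the mesenchymal filament, was lower in untreated PC9M2 by -1.28 and NES higher by 1.43. RefSeq windows of 250 bases before the start held 2 of the 10 keratin genes, KRT5 and KRT8; the letters TGANTCA (an AP-1 motif), GGGCGG and TATAAA occurred on neither strand of either window, and in 6.57, 42.6 and 10.7% of 35116 windows.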

How the data were processed

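Each sample was measured on 1 one-colour (Cy3) Agilent 44K array. The authors deposited per-array intensities from Agilent Feature Extraction (version 10.5.1.1 per the file headers), background-subtracted and not normalized between arrays, and a table of intensities that were quantile normalized over all 45015 features. Here, the per-array intensities were quantile normalized, floored at 1 and log2 transformed, outlier spots (0.0793%) were removed, and replicate spots were averaged. A RefSeq symbol was found for 24794 of 41000 probes. The probe with the largest variance stood for a gene, and 13263 genes with that probe well above background on at least 13 of 26 arrays of a course were tested. Per array 24464 to 35938 features were well above background.

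Tests used limma 3.58.1 in R 4.3.3 on all tested genes, on differences at matched time points, on a natural spline of time (F-test, 4 degrees of freedom), and on gefitinib differences from 12 h against earlier ones. The script was tested on simulated data. The limit of 0.5 on the share of saturated arrays, and leaving out the 11 h and 16 h time points, were chosen after seeing the data. Named genes were all 10 keratins, the gene outside these 10 nearest to each by correlation, and up to 4 genes of a list. Those of a list were called and at least 2-fold different in a comparison. For the 3 keratins saturated in PC9 the correlation ran over PC9M2 arrays alone, a choice made after seeing the data. The value of a list gene in the other line, KRT14 with gefitinib, and KRT6B and KRT6C with EGF were added after their values were seen. The members and lists were chosen with earlier results of these data known. Alternatives covered scaling, background, floor, filter, probe choice, pairing, time points, scanning day and test.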

Additional observations from a re-analysis of the deposited data

Results flagged for a closer look

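The gefitinib effect differed between the lines for 4 of the 7 keratins compared, by limma's test of the difference of the effects at matched time points. PC9M2 minus PC9, these differences were 0.84 for KRT6A (adjusted p = 0.000115, above 0 at 22 of 26 time points) and 0.59 for KRT7 (adjusted p = 0.000897, above 0 at 23 of 26). They were 0.55 for KRT17 (adjusted p = 0.0143, above 0 at 21 of 26) and -0.31 for KRT15 (adjusted p = 0.0222, above 0 at 6 of 25). The KRT15 difference turned direction with the scaling of the arrays (0.16). With time points 3 h apart the differences of KRT17 (0.59, adjusted p = 0.0575) and KRT15 (-0.30, adjusted p = 0.312) were not called. The lines were scanned on different days and slides, so line and scan cannot be told apart.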

How the results depend on the processing

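Under the alternatives run, the gefitinib calls of KRT6A, KRT15, KRT16 and KRT17 held in both lines, with KRT6A between -2.97 and -1.51 in PC9 and between -1.96 and -0.84 in PC9M2. Of 2107 recomputed single values 1970 kept direction and side of the threshold, 99 were no longer called, 34 became called and 4 turned direction, and of 292 recomputed counts 261 stayed within 1.5 times. The 4 that turned were the KRT80 line differences over the first 13 time points, with gefitinib (0.36), EGF (0.16) and both (0.45), and the KRT15 difference of the gefitinib effect under 75th percentile scaling (0.16). One-sided, the line comparisons called 1 keratin each; with saturated keratins counted, 7 were called with gefitinib and 7 with both. For gefitinib in PC9M2 the count was 4 unpaired and 4 over the first 13 time points. For gefitinib with EGF in PC9M2 it was 5 under 75th percentile scaling, 5 unpaired, 4 with time points 3 h apart, 4 over the first 13 and 5 with scanning day as a random block. For EGF in PC9 it was 2 under 75th percentile scaling, 2 with normexp, 0 at 3 h apart and 2 with the scanning day block, and in PC9M2 0 at 3 h apart and 2 over the last 13. For EGF under gefitinib in PC9M2 it was 2 with normexp, 0 unpaired, 0 at 3 h apart, 0 with the variance inflated for autocorrelation and 0 over the first 13. For the difference of the gefitinib effect it was 2 unpaired, 2 at 3 h apart and 2 with inflated variance (KRT6A and KRT7 each time) and 2 over the first 13 (KRT6A and KRT17). The scanning day block left 2 spline calls in untreated PC9M2 and 4 in PC9M2 with gefitinib. In place of the late minus early difference, a linear trend called 5 keratins in PC9 (KRT6A, KRT8, KRT15, KRT16 and KRT17). The causes of these changes were not tested. No paired analysis was possible by replicate number because each course has 1 array per time point; time points were paired instead. Saturation limits KRT5, KRT18 and KRT19 in PC9, and the KRT80 probe lies near background.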
